A study of Rattus norvegicus with 6 samples.

Results

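The interferon response genes are 35 genes that cells switch on when type I or type II interferon binds its receptor, chosen by name from a list made with earlier results of these arrays known. A gene was represented by the probe set that carried its symbol alone and had the highest mean over the arrays. In this way 31 of the 35 were found, and 29 of these had a mean above the low-value filter of 2.82 (log2), among 10449 such genes on the array. Ifit1 and Zbp1 lay below the filter, between 2.24 and 2.47 and between 2.68 and 2.91, where values have no order. Samd9l, Xaf1, Gbp5 and Ifi47 had no probe set of that symbol alone, and no value is given for them.

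Liver of male Sprague Dawley rats, an outbred stock, of 210 to 230 g was profiled on 6 Affymetrix arrays. Treated rats received tienilic acid (TA), a diuretic that was withdrawn after cases of hepatitis, at 100 mg/kg by gavage, dissolved with sodium bicarbonate, and vehicle rats received sodium bicarbonate alone. The 6 h livers had seen 1 dose and the 24 h livers a further dose given at 16 h, and the ages of the rats are not given in the sources used here. Each time has 2 TA arrays of 1 rat each (animal 1 and animal 2, different rats at the 2 times) and 1 vehicle array, which holds RNA pooled from 2 rats. Because a pool has no spread of its own, each standard error (SE) below rests on the spread between treated rats of the same time. That spread is pooled over both times and drawn by limma toward a value common to all probe sets. A wide gap between the rats of 24 h thus also widens the SE at 6 h. P-values measure this pooled spread only. The 2 differences of a time share their vehicle array and are not independent.

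Interferons are secreted proteins that warn tissue of infection or damage. They act through receptor-bound kinases on STAT proteins, and STAT2 and IRF9 are parts of the complex ISGF3, which binds a short DNA element, the interferon-stimulated response element (ISRE). The genes behind it encode sensors of viral RNA, proteins that block viral translation or cut viral RNA, the ubiquitin-like protein ISG15 with its enzymes, and GTPases that attack intracellular microbes. Many of them are also transcribed at a low tonic level in healthy tissue, liver hepatocytes and Kupffer cells included.

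The promoters show how the members are tied to that pathway. RefSeq promoters on the rat build GRCr8, each 300 bases long with 250 before and 50 after the transcript start that the table uses, were matched for 26 of the 35 members. The ISRE was searched as a pair of GAAA half-sites with 2 bases of any kind between them, on both strands, overlapping matches included. It was present in 16 of the 26 (61.5%), against 3.92% of all 33469 promoters of that length. The members were picked as interferon responsive, so this share describes the list. The 9 members without a matched promoter were Ifit1, Ifit2, Mx2, Isg15, Usp18, Dhx58, Zbp1, Adar and Samd9l. A set of 6 sequences is given, all with an ISRE, from genes that the results below discuss. Cmpk2, Irf9, Trim25, Irf1, Mx1, Oasl, Stat2, Herc6 and Parp9, also discussed there, had a matched promoter without an ISRE. Ifit3, Oas1a, Irf7 and Ifih1 were lowest on the same array, whereas Rsad2 and Bst2 were not. Capitals mark the ISRE matches, and the strand is that of the gene, with each sequence read 5′ to 3′ along it.
Ifit3, chr1:241527076-241527375, strand +: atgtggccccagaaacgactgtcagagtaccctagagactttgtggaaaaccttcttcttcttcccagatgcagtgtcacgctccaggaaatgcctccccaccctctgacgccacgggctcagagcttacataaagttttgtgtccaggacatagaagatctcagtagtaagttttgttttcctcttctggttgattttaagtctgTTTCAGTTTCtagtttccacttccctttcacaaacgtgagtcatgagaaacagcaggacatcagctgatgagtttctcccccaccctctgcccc
Oas1a, chr12:41330216-41330515, strand +: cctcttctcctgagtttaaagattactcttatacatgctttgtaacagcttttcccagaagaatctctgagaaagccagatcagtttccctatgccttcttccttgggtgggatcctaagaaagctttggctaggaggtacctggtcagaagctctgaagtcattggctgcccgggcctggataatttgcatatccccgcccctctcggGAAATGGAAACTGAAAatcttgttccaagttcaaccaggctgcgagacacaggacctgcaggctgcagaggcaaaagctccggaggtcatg
Irf7, chr1:205799974-205800273, strand -: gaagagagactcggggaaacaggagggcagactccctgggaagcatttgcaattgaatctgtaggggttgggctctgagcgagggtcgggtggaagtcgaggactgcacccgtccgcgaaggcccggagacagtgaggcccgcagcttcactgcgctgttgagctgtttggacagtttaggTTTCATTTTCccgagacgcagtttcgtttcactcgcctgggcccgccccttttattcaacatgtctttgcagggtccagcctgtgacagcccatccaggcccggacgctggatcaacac
Ifih1, chr3:67683919-67684218, strand -: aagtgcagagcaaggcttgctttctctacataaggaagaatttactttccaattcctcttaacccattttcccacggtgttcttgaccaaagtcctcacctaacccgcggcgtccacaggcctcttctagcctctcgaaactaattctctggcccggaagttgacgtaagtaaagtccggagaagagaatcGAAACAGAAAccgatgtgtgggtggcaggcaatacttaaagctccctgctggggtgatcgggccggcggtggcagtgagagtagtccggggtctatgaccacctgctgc
Rsad2, chr6:48788071-48788370, strand -: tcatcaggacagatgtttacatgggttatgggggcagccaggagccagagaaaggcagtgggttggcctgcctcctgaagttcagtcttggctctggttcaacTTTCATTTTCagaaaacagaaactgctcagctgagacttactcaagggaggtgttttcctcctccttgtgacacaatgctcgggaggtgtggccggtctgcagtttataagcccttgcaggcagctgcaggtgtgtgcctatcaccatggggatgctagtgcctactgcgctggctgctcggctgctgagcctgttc
Bst2, chr16:18254918-18255217, strand -: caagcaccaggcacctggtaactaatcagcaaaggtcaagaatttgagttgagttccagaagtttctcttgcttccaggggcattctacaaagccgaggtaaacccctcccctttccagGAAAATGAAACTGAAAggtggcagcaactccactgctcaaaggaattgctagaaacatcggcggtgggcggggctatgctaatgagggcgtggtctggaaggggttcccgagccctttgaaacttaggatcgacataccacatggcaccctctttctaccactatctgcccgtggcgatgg
The first base of the match lay at -44 from the transcript start in Ifit3, at -69 in Irf7, at -59 in Ifih1 and at -147 in Rsad2. Oas1a and Bst2 each held a pair of overlapping matches, from -41 and -35 in Oas1a and from -131 and -125 in Bst2. Of the members above the filter, 8 of the 10 with a matched promoter that were lowest in TA animal 2 at 24 h held an ISRE (80%), and 6 of the 13 lowest on another array (46.2%), given as a description. A match is a run of letters and not evidence that a factor bound it in these livers.

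No member passed the test in any comparison. In limma's test over 18625 probe sets (Benjamini-Hochberg adjusted p under 0.05), 0 of the 29 members were called at 6 h, where 0% of probe sets were called, and 0 at 24 h, where 0.00537% were. Limma called 0 members as well for the difference between the TA effects of the 2 times (0.00537% of probe sets) and for TA at 24 h against TA at 6 h (0% of probe sets). Members were counted by their brightest probe set. At an unadjusted p under 0.05, limma gave 1 of 29 members at 6 h, Oasl, or 3.45%, against 5.84% of probe sets. It also gave 1 at 24 h, Ifih1, against 5.28%, and 1 for the difference of effects, Oasl, against 4.8%. For TA at 24 h against TA at 6 h it gave Bst2, Cmpk2 and Parp9, 3 of 29 or 10.3%, against 14.8% of probe sets. No member was at least 2-fold from vehicle in the same direction in both animals, at either time. Over all genes, 0.249% were 2-fold higher and 0.23% 2-fold lower in both animals at 6 h, and 0.258% and 0.211% at 24 h. The values that follow therefore describe these 6 arrays, and a difference named below did not pass limma's test.

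**Figure D1:**
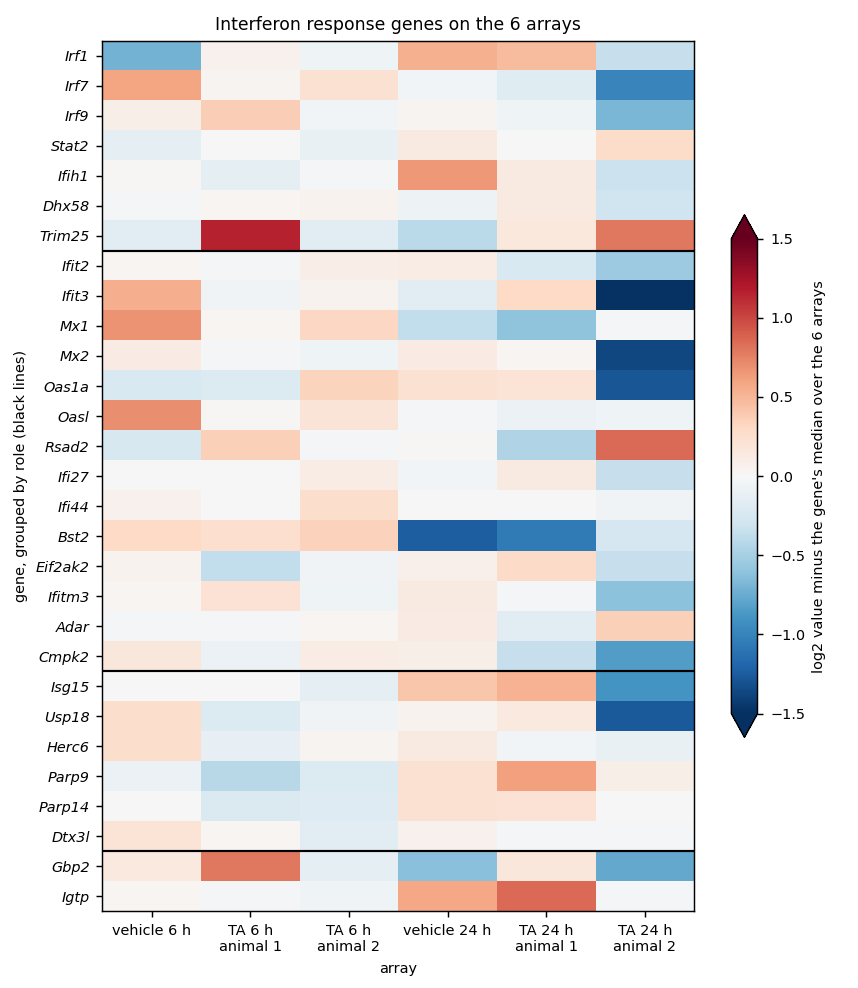
Log2 value of each of the 29 interferon response genes above the filter (rows, grouped by role from sensors and signalling at the top to the interferon-gamma inducible GTPases at the bottom) on the 6 arrays (columns), minus that gene's median over the arrays. Red is above and blue below the median. The column of TA animal 2 at 24 h holds the lowest value of 15 of the 29 genes.

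The feature that stood out was 1 array. Of the 29 members, 15 had the lowest of their 6 values in TA animal 2 at 24 h, which is 51.7%, where the same array held the lowest value of 20.5% of all genes. The other 5 arrays each held the lowest value of 2 to 4 members, or 6.9% to 13.8%, and of 9.83% to 24.7% of all genes. On TA animal 2 at 24 h, 4 members lay at least 2-fold below all 5 other arrays, 13.8% against 0.182% of all genes. At 1.5-fold there were 7, or 24.1%, against 0.842%. At the other extreme, 3 members had their highest value in this animal (10.3%, against 16.3% of all genes). The pattern was noticed in the data and concerns 1 rat, so no test between groups applies to it. Over the 15 genes, the value in this animal minus the median of the other 5 arrays had a median of -0.91, from -0.05 for the least to -1.54 for the most displaced.

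**Figure D2:**
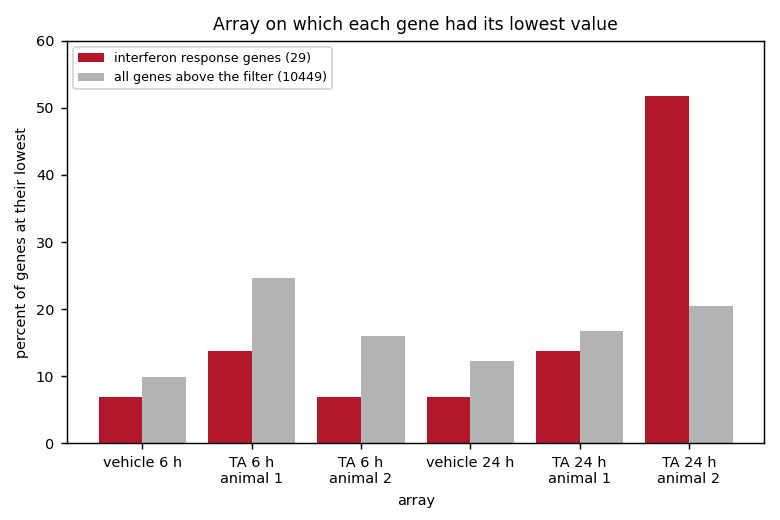
Percent of genes (vertical axis) whose lowest value of 6 fell on each array (horizontal axis), for the 29 interferon response genes (red) and all 10449 genes above the filter (grey). TA animal 2 at 24 h held the lowest value of 51.7% of the interferon response genes and of 20.5% of all genes.

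The genes lowest in this animal came from every role: 8 of the 14 antiviral effectors, 4 of the 7 sensors and signalling genes, 2 of the 6 genes of the ISG15 system and 1 of the 2 GTPases. Mx2, a dynamin-like GTPase that blocks virus replication, had 7.37 for the 6 h vehicle pool, 7.21 and 7.18 for TA animals 1 and 2 of 6 h, 7.37 for the 24 h vehicle pool, and 7.28 and 5.88 for TA animals 1 and 2 of 24 h. The other 5 arrays thus lay within 0.20 of each other, and animal 2 at 24 h stood alone below them. Oas1a makes the 2-5A messenger that activates the ribonuclease RNase L, and its family has close copies that a probe set can share. In the same order of arrays it was at 5.94, 5.97, 6.50, 6.40, 6.37 and 4.89, with animal 2 at 24 h again the lowest. Ifit3, a partner of the RNA-binding IFIT complex, was at 5.36, 4.76, 4.87, 4.64, 5.11 and 3.33. The mean differences of TA from vehicle at 24 h were -0.80 ± 0.65 (SE, n = 2 treated rats) for Mx2, -0.77 ± 0.72 for Oas1a and -0.42 ± 0.82 for Ifit3. Animal 1 lay near the vehicle pool for Mx2 and Oas1a, at -0.09 and -0.03 from it, and above it for Ifit3, by 0.47, so that no difference was clearly larger than its SE. Between the 2 treated animals of 24 h the gap was 2.65-fold for Mx2, 2.79-fold for Oas1a and 3.44-fold for Ifit3.

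Cmpk2, a mitochondrial nucleotide kinase, and Ifit2, which binds viral RNA and slows translation, were lower than vehicle in both animals of 24 h. Cmpk2 was at 7.22, 6.96, 7.16, 7.13, 6.70 and 6.21, a difference at 24 h of -0.67 ± 0.26 (limma, adjusted p = 0.95), and Ifit2 was at 9.89, 9.83, 9.96, 9.97, 9.63 and 9.32, a difference of -0.49 ± 0.18 (adjusted p = 0.95). For both genes the 2 treated rats of 24 h were the lowest arrays of all 6. The other probe set of Ifit2 was at -0.45 and -0.32 from vehicle in animals 1 and 2 and had its lowest value in animal 1. That of Cmpk2, a dimmer one, was at -0.10 and -0.02. Ifitm3, a membrane protein that hinders virus entry, was at 10.90 in animal 2 and between 11.46 and 11.74 elsewhere. Ifi27, a mitochondrial protein, was at 13.23 against 13.54 to 13.71, and Ifi44 at 6.63 against 6.67 to 6.94, a gap of only 0.05 below the next array.

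The ISG15 system showed the same split within a list of 6. Isg15 itself, the ubiquitin-like modifier, was at 8.45, 8.46, 8.32, 8.87, 8.98 and 7.56, in the order given above. Usp18, the protease that removes ISG15 and also damps the type I receptor, was at 7.41, 6.95, 7.10, 7.20, 7.30 and 5.89. For both genes animal 1 of 24 h was just above its vehicle pool, by 0.11 and 0.10, and animal 2 below it by far more, at -1.32 and -1.31. Their mean differences at 24 h were -0.60 ± 0.66 each. The other 4 members of the list were not lowest in animal 2 of 24 h. Herc6, which in mouse is the ligase for ISG15, was between 5.11 and 5.49 on the 6 arrays. Dtx3l was between 8.86 and 9.22, Parp14 between 8.84 and 9.29 and Parp9 between 8.67 and 9.71. At 24 h animal 2 was nonetheless below animal 1 for all 6 genes of the list, against 56.7% of all genes. The gap was -0.53 for Parp9, -0.21 for Parp14, -0.07 for Herc6 and -0.01 for Dtx3l. Parp9 and Dtx3l, which encode a protein pair that modifies histones in the interferon response, are next to each other in the RefSeq annotation with 0 protein-coding genes between them. In the 6 h comparison 5 of the 6 genes of this list were lower than vehicle in both animals, where 38.4% of all genes were. Their median difference was -0.24, beside -0.03 over all genes.

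**Figure D3:**
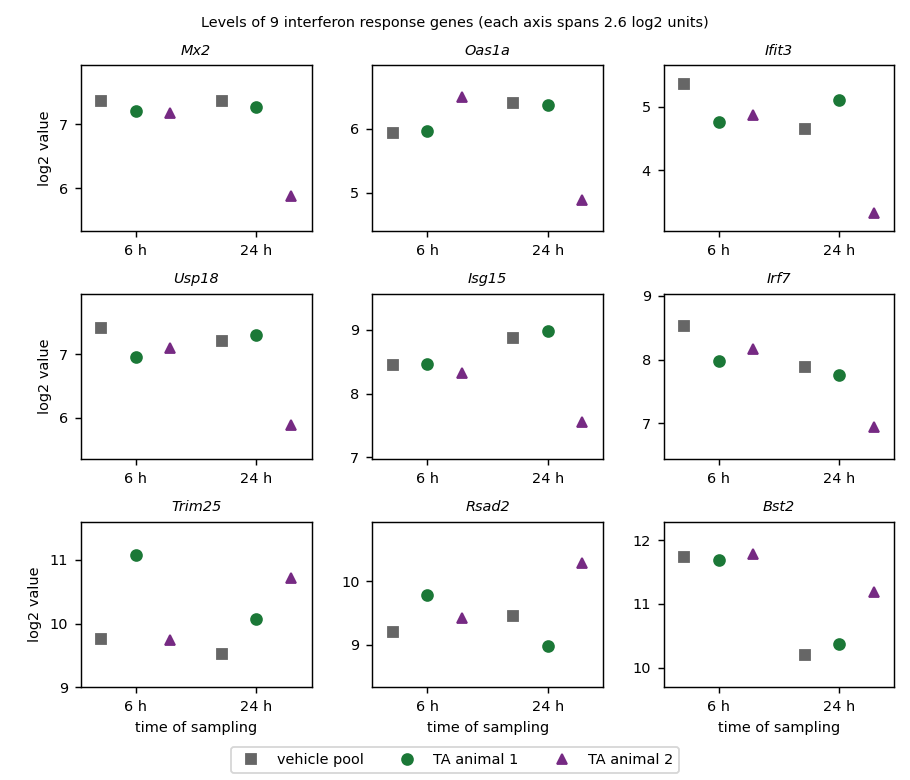
Log2 level of 9 genes (one panel each, every vertical axis spanning 2.6 units) in the vehicle pools (squares) and TA animals 1 (circles) and 2 (triangles) at 6 h and 24 h. In the upper 6 panels the triangle at 24 h is the lowest point. In the lower row it is the highest point for Rsad2 (10.29), above vehicle for Trim25 (10.71) and between the 6 h and the other 24 h arrays for Bst2 (11.18).

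Among sensors and signalling genes, 4 of the 7 measured were lowest in the same animal. Irf7, the factor that amplifies type I interferon production, was at 8.53, 7.98, 8.16, 7.89, 7.75 and 6.94. It was lower than its vehicle pool in all 4 treated rats, by -0.46 ± 0.39 at 6 h and -0.54 ± 0.39 at 24 h (limma, adjusted p = 1 for each). Irf9, the DNA-binding part of ISGF3, had 7.77 in animal 2 of 24 h, below a range of 8.39 to 8.82 for the rest. Its other probe set, at 6.64 against 6.95 to 7.40, was lowest there too. Ifih1, the cytoplasmic double-stranded RNA sensor MDA5, was at 5.0, 4.83, 4.96, 5.63, 5.12 and 4.66, so that the vehicle pool of 24 h was the highest array and both treated rats of 24 h lay below it, by -0.74 ± 0.24 (adjusted p = 0.93). Dhx58, the related sensor LGP2, was at 6.88 in animal 2 against 7.10 to 7.31. At 6 h this probe set was 0.07 and 0.08 above vehicle in animals 1 and 2. A dimmer probe set of Dhx58 went the other way, at -0.57 and -0.56. Its difference was -0.56 ± 0.1 (limma, unadjusted p = 0.0064, adjusted p = 0.76), and its unadjusted p for the difference of effects was 0.04. The dimmest probe set of Dhx58 had -0.01 ± 0.09 at 6 h. Stat2, the partner of IRF9, was highest in animal 2 of 24 h, at 8.89, with 8.47 to 8.74 elsewhere.

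Irf1 differed in direction between the times. This transcription factor, a first-wave target of interferon gamma, had 7.21 for the 6 h pool beside 7.98 and 7.86 for its TA animals, then 8.45 for the 24 h pool beside 8.39 and 7.57. At 6 h both treated rats were above the pool by similar amounts, 0.71 ± 0.39 (limma, adjusted p = 0.98), and at 24 h both were below it, by -0.46 ± 0.39 (adjusted p = 1). The difference between the 2 effects was -1.18 ± 0.55 (adjusted p = 1). The vehicle pools themselves were 1.24 apart, further than any treated animal was from its pool, and against the other pool the 6 h difference was -0.52. Both treated rats of 24 h, in turn, lay above the 6 h pool. Oas1a was the other member above vehicle in both animals at 6 h and below it in both at 24 h, with a difference of effects of -1.07 ± 1.02 (limma, adjusted p = 1). For Oas1a this came from the animals numbered 2, at 0.56 and -1.51, since those numbered 1 were at 0.03 and -0.03. Without animal 2 of 24 h its difference at 24 h was -0.03.

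Trim25, Bst2 and Rsad2 were the members furthest above vehicle in animal 2 of 24 h, by 1.19, 0.98 and 0.83. Mx1 (0.33), Adar (0.23) and Stat2 (0.14) were above it too. Rsad2, viperin, an enzyme that makes a chain-terminating nucleotide, was at 9.20, 9.79, 9.42, 9.45, 8.98 and 10.29, so that the treated rats of 24 h were the lowest and the highest arrays, 2.46-fold apart. Rsad2 and Cmpk2 are neighbours, with 0 protein-coding genes between them, and in animal 2 one was at its highest and the other at its lowest value. Trim25, the ligase that activates the RNA sensor RIG-I, was at 9.76, 11.08, 9.75, 9.52, 10.08 and 10.71. It was higher than vehicle in 3 of the 4 treated rats and had the largest mean differences upward among members at 24 h, 0.88 ± 0.68 (limma, adjusted p = 1). At 6 h its difference of 0.65 ± 0.68 came from animal 1 alone: without that rat it was -0.01. Bst2, tetherin, which holds budding virus at the cell surface, was at 11.73, 11.69 and 11.78 at 6 h and at 10.20, 10.37 and 11.18 at 24 h. Its level was thus lower on every 24 h array than on any 6 h array, vehicle included. TA at 24 h minus TA at 6 h was -0.96 ± 0.31 (adjusted p = 0.32), and the vehicle pools differed by -1.52.

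**Figure D4:**
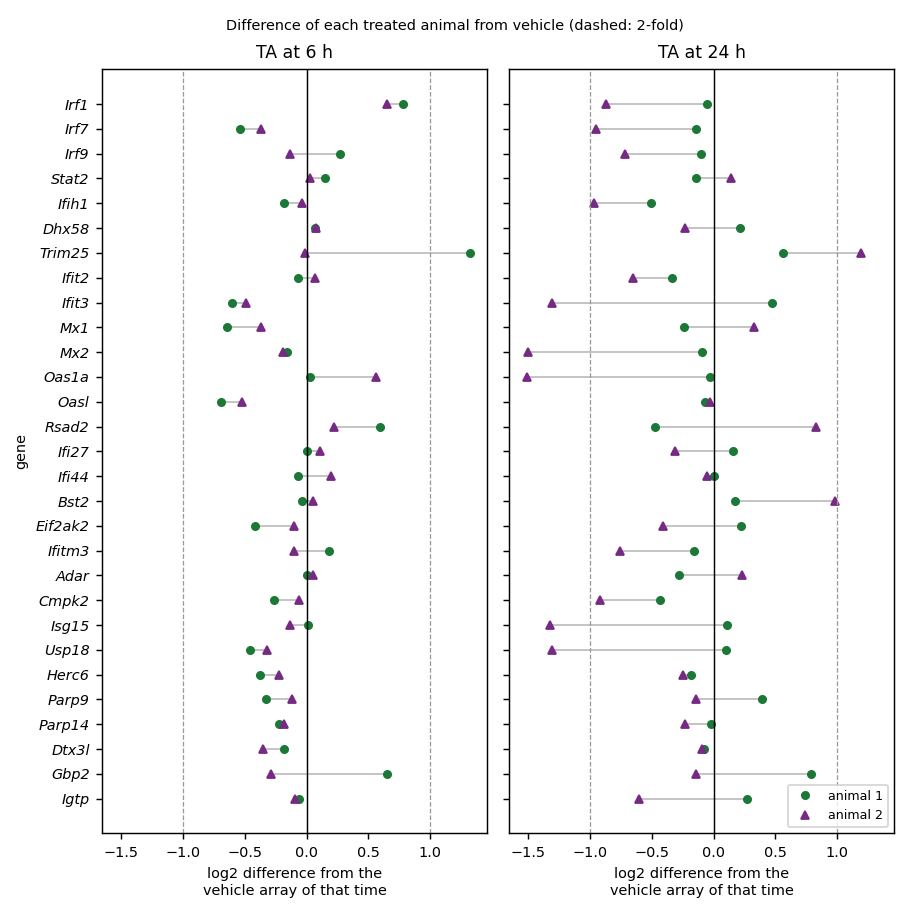
Log2 difference (horizontal axis) of TA animal 1 (circles) and animal 2 (triangles) from the vehicle array of the same time for the 29 interferon response genes, at 6 h (left) and 24 h (right). Dashed lines mark 2-fold. At 6 h, 1 gene had animals 2-fold apart, and at 24 h 6 genes did, 5 of them with animal 2 lower.

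At 6 h the members' values lay close to vehicle. Their median difference was -0.06, beside -0.03 over all genes above the filter. Higher than vehicle in both animals were 6 of the 29 (20.7%), against 22.9% of all genes, and lower in both were 14 (48.3%), against 38.4%. After quantile normalization of the deposited values, 11 were higher and 11 lower, with a median of 0.03. The shares over all genes are not given for that setting. Oasl, an OAS-like protein that aids RIG-I signalling, had 6.01 for the 6 h pool beside 5.33 and 5.50 for its TA animals, a difference of -0.60 ± 0.12 (limma, adjusted p = 0.76). The 24 h pool had 5.29 and its TA animals 5.22 and 5.25, so that the vehicle pool of 6 h was the array that stood apart. Mx1, the other dynamin-like GTPase, had 5.43 for the 6 h pool, 4.79 and 5.06 in its TA animals, and 4.39, 4.15 and 4.72 at 24 h. Its difference at 6 h was -0.50 ± 0.30, and the 2 vehicle pools were 1.04 apart. Herc6 was at 5.49, 5.11, 5.27, 5.36, 5.19 and 5.12, below the pool of its time in all 4 treated rats, with -0.30 ± 0.12 at 6 h (limma, adjusted p = 0.90). In all, 3 of the 29 members, Bst2, Irf1 and Mx1, differed by at least 2-fold between the vehicle pools, which is 10.3%, against 2.99% of all genes.

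At 24 h the median difference was -0.12, beside -0.01 over all genes. It was -0.05 in animal 1 and -0.31 in animal 2. Both animals were above vehicle for 2 of the 29 members (6.9%), against 28.1% of all genes. These were Trim25 and Bst2. Both were below for 14 (48.3%), against 34.5%. Animal 2 was below animal 1 for 22 members (75.9%, against 56.7% of all genes), and at least 2-fold below for 5 (17.2%, against 1.17%). Those 5 were Ifit3, Isg15, Mx2, Oas1a and Usp18, and Rsad2 was the 1 member at least 2-fold above. In all 6 members (20.7%, against 2.71% of all genes) were thus 2-fold apart between the 24 h animals. At 6 h the animals were 2-fold apart for 1 member, Trim25 (3.45%, against 1.91%), which was also the 1 member with animal 2 lower by that much (against 0.957%), and animal 2 was below animal 1 for 11 members (37.9%, against 49.4%). Without animal 2 of 24 h the counts above and below vehicle at 24 h were 11 and 18 of 29. No share over all genes is given for animal 1 alone, so these counts are a description only. The median difference of animal 1 over all genes was 0.0.

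Genes induced mainly by interferon gamma were represented by Gbp2 and Igtp, GTPases that assemble on vacuoles of intracellular microbes. Gbp2 was at 7.78, 8.43, 7.49, 7.01, 7.80 and 6.87, with animal 1 above and animal 2 below the pool at both times. Igtp was at 9.65, 9.59, 9.56, 10.20, 10.48 and 9.60, and animal 2 of 24 h was at the level of the 6 h arrays while the other 24 h arrays were above it. The remaining members, Adar, which edits double-stranded RNA, and Eif2ak2, the kinase PKR, ranged over 0.51 and 0.66 across the arrays. Eif2ak2 was at 8.38 in animal 2 of 24 h and 8.35 in animal 1 of 6 h, its lowest values, and Adar was at its highest in animal 2, at 7.89, which held for 1 of its further probe sets (3.67) and not for another (3.85, the lowest).

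One further probe set of Mx2 behaved unlike the first. TA animal 1 of 6 h had 7.54 on it, where the other 5 arrays had 2.84 to 2.91, a level near the floor, while the brighter probe set was at 7.21 in that animal. Across the 9 members with more than 1 probe set, all had at least 2 above the filter.

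The rest of the pathway was followed in a list of 105 other gene names, some of them old and new names of the same gene. Of these names, 77 had a probe set of their own symbol and 67 were above the filter. Limma called 0 of the 67 in each of the 4 comparisons (adjusted p under 0.05). The interferons measured, Ifnb1, Ifng and Ifnk, all lay below the filter, between 2.16 and 2.37 on every array. Of the 8 receptors and kinases above the filter, 4 were higher and 2 lower in both animals at 6 h, and 1 and 4 at 24 h. The shares higher and lower over all genes were 22.9% and 38.4% at 6 h, and 28.1% and 34.5% at 24 h. Ifnar2, a chain of the type I receptor, had 9.45 for the 6 h pool, 8.50 and 9.14 for its TA animals and 7.89 to 8.01 at 24 h, whereas its other probe set was at 7.51, 7.96 and 7.59 at 6 h, so its direction is uncertain. Tyk2, the kinase bound to that receptor, had -0.19 ± 0.11 at 6 h. Among STATs and IRFs, Stat3 had -0.78 ± 0.29 at 24 h (-0.28 on its other probe set) and Irf8, a factor of myeloid cells, 0.51 ± 0.19. Among sensors and adaptors, Myd88, the adaptor of Toll-like receptors, had 8.97 for the 6 h pool beside 8.16 and 8.32 for the treated rats, a difference of -0.74 ± 0.19 (limma, adjusted p = 0.80). Ticam1, the adaptor of TLR3, had -0.36 ± 0.39 at 6 h, and of the inhibitors the phosphatases Ptpn11 and Ptpn6 had -0.26 ± 0.12 and -0.24 ± 0.13.

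The 45 other induced genes above the filter had a median of 0.01 at 6 h and -0.11 at 24 h. At 24 h, 5 were higher and 19 lower in both animals, where 28.1% and 34.5% of all genes were. The lowest value of 17 fell in animal 2 of 24 h. Over all 67 pathway genes outside the member list, 24 (35.8%) were lowest in that animal, again beside 20.5% of all genes. Rtp4, a receptor-transport protein widely used as an interferon marker, was at 9.10, 9.32, 9.61, 10.57, 9.91 and 8.04, a difference at 24 h of -1.60 ± 0.87 (limma, adjusted p = 1). The treated animals of 24 h were both below their pool, and animal 2 was the lowest of the 6 arrays. Slfn4, a Schlafen protein of macrophages, was low instead in animal 1 of 24 h, at 5.88, with 7.34 to 8.19 elsewhere.

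Cell markers and RNA measures of animal 2 at 24 h stand beside these values, and their part in the result was not tested. In bulk liver, fewer cells of a type and less RNA per cell cannot be told apart. The markers lowest in this animal were 1 of 6 for hepatocytes, 1 of 6 for T and NK cells, 1 of 2 for dendritic cells and 0 for the other lists. Hepatocyte markers (6 of 6 above the filter, Alb among them) had a mean log2 level of 15.40 in this animal and 15.37 to 15.46 across the rest, so the defining genes of the labelled tissue were present. Kupffer cell and macrophage markers (11 of 11) were at 8.86, with 8.58 to 9.15 elsewhere. Sinusoidal endothelial markers (6 of 6) were at 9.28, with 9.0 to 9.47 elsewhere. T and NK cell markers (6 of 13 above the filter, not Cd3d, Cd2, Cd8a, Cd4, Nkg7, Klrd1 or Ncr1) were at 3.57, with 3.38 to 3.58 elsewhere. Of B cell markers 1 of 3 was above the filter (Cd79b and Ms4a1 were not), at 3.36, with 3.36 to 3.52 elsewhere. The same held for 2 of 5 neutrophil markers (not Csf3r, Cxcr2 or Camp), at 4.27, with 3.85 to 4.64 elsewhere, and for 2 of 4 dendritic cell markers (not Flt3 or Itgax), at 7.16, with 6.95 to 8.63. The 3′ signal minus the 5′ signal for GAPDH control probes, which grows as RNA degrades, was 1.82 in this animal, the lowest of the arrays, which otherwise ran from 1.91 to 2.26, and that of actin was 4.29, within 4.17 to 4.36. Arrays whose clock times in the array settings lay close together were taken as 1 run, without regard to the day. The settings do not name a run. All 24 h arrays and TA animal 2 of 6 h fell in 1 such inferred run, and so did both sides of the contrast between the 24 h animals. The 6 h comparison spans 2 inferred runs, with the vehicle pool and animal 1 in the one of earlier clock times.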

How the data were processed

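The deposited table holds log2 values of 31099 probe sets of the Rat230_2 array on 6 arrays, as the authors summarised them. R 2.0.1, affy 1.5.8, RMA and GCRMA are named per the submitters' processing notes, which do not say whether RMA or GCRMA gave these values. Values near the floor are compressed. Precision is limited by having only 6 arrays.

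Groups came from the sample titles. The 57 control probe sets were left out, which left 31042, and 18625 of these had a mean over the 40th percentile (2.82) and entered the tests. GEO's platform annotation, possibly outdated, gives 1 symbol to 20826 probe sets, several to 436 (not named) and none to 9780. All 42 probe sets of the members were matched by gene identifier in the reference table and 0 changed symbol. A mean per group was estimated using limma 3.58.1 under R 4.3.3 (lmFit, then eBayes; residual degrees of freedom 2, prior 1.6, median SE at 6 h 0.15), with two-sided p-values adjusted over all probe sets kept. Limma was tested on simulated data. Counts over genes use the brightest probe set of each symbol. The members, role groups and other lists were chosen with earlier results of these data known. Values on every array are given for the 10 members with the largest mean difference at each time, for those with animals 2-fold apart, and for called members. The array that held each gene's lowest value was examined after seeing the data, as were Ifitm3, Ifi27, Ifi44, Irf9, Dhx58, Stat2, Gbp2, Igtp, Adar, Eif2ak2 and the 6 promoters shown.

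Equal replicate numbers do not pair the rats: they mark different animals at the 2 times, and the deviations of same-numbered treated arrays correlated at -0.08 over 18625 probe sets.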

Additional observations from a re-analysis of the deposited data

Results flagged for a closer look

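Irf1 was higher than vehicle in both animals at 6 h and lower in both at 24 h, a difference of effects of -1.18 on the log2 scale. Its animal 1 of 24 h was only -0.05 from vehicle, and its vehicle pools were 1.24 apart. Against the other pool the 6 h difference of Irf1 was -0.52, and both of its treated rats of 24 h lay above the other pool. Oas1a showed the same turn between the times, with a difference of effects of -1.07, but its animals numbered 1 were only 0.03 above and -0.03 from vehicle, and without animal 2 of 24 h its difference at 24 h was -0.03. Limma's test of that difference did not call either gene (adjusted p = 1 for both). The further probe set of Mx2, which the counts over genes did not use, was 4.69 above vehicle in TA animal 1 at 6 h. It was within 0.07 of vehicle in the other 3 treated rats. Limma tested it and called it in no comparison, with a 6 h difference of 2.38 ± 2.11.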

How the results depend on the processing

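The count of 15 members lowest in TA animal 2 at 24 h was 15 to 17 under alternatives chosen after seeing the data. These were the other filters, normalizations and probe set choices, and leaving out any 1 other treated rat. Leaving out another rat cannot lower this count, so that part does not test it. Members called by limma were 0 in every comparison under every alternative. Against the vehicle pool of the other time, 1 probe set was called at 6 h and 0 at 24 h, 1 member was 2-fold higher in both animals at 6 h, and 5 members were higher in both at 24 h. In that setting the sign turned for Irf1 (-0.52), Oasl (0.13), Ifit3 (0.17), Mx1 (0.54), Irf7 (0.18) and Oas1a (-0.17) at 6 h and for Bst2 (-0.95) at 24 h. With both pools as 1 control group it turned for Mx1 at 6 h (0.02) and Bst2 at 24 h (-0.19), and with the additive model for Oas1a (-0.24). The signs of these genes thus depend on which vehicle pool is used. The count lower in both animals was 14 at each time with either pool, but partly of different genes. At 6 h, Ifit3, Mx1, Oasl, Irf7 and Cmpk2 left it with the other pool, and Ifit2, Isg15, Irf1, Stat2 and Adar entered. No share over all genes is given for the other pool, so the equal count is a description only. Quantile normalization put 11 members above vehicle in both animals at 6 h in place of 6, and 11 below in place of 14. It moved their median to 0.03, and the shares over all genes are not given for it. At 1.5-fold, 1 member was higher in both animals at 6 h. The cause was not tested.

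Over all probe sets, the 1 call at 24 h became 0 with the 60th percentile filter, with 1 control group, with the additive model, with the run as a block and with the replicate block, and 2 with a trend in the prior. It was 0 to 2 when 1 treated rat was left out. The 1 call for the difference of effects became 0 with the 60th percentile filter, 1 control group, the run as a block and the replicate block, and 0 without any 1 treated rat. TA at 24 h against TA at 6 h had 3 calls in the additive model in place of 0. The replicate block changed no call of a member. Leaving out 1 rat of a time makes the rule about both animals one about the other rat alone. Then 10 to 11 members were higher at 6 h, with 0 to 1 past 2-fold. At 24 h, 6 to 11 were higher and 18 to 23 lower, with 0 to 1 past 2-fold upward and 0 to 5 downward. The shares over all genes are not given for these settings. Over all genes, the median difference of animals 1 and 2 was -0.03 each at 6 h, then 0.0 and -0.02 at 24 h. With 1 rat left out, the difference of Trim25 at 6 h ran from -0.01 (without animal 1) to 1.32, and at 24 h that of Isg15 from -1.32 to 0.11 and that of Usp18 from -1.31 to 0.10, the upper values without animal 2.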
